A study of Mus musculus with 24 samples.

Results

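Astrocytes, the star-shaped glial cells of the brain, were followed through 4 groups of mouse brains by 10 genes that mark them: Slc1a3, Slc1a2, Glul, Gja1, Gjb6, Aqp4, Gfap, S100b, Aldoc and Aldh1l1. Their probe sets were found by symbol: every probe set whose only annotated gene was 1 of these 10 genes was taken, which gave 32 of the 45101 probe sets on the array and 10 of its 18194 named genes. Slc1a3 and Gja1 had 6 each, Slc1a2 had 5, Aqp4 and Gfap 3, Aldoc, Aldh1l1, S100b and Glul 2, and Gjb6 had 1. Bright enough to be tested were 29 of the 32, with at least 1 for each gene, while 2 probe sets of Slc1a3 and 1 of Aldh1l1 were too dim. RNA came from whole brains of 4-month-old mice, 24 samples on 24 Affymetrix arrays in groups of 6 labelled wt (wild type), aSYN only, Hsp70 only, and aSYN with Hsp70 (written aSYN/Hsp70). aSYN is read here as alpha-synuclein, the main protein of Lewy bodies in Parkinson's disease, and Hsp70 as the 70-kilodalton heat shock protein, a chaperone; the labels do not give the strain, the promoters of any transgenes, the sex, or whether each sample was a separate animal. P-values therefore measure the spread between these samples, which may be technical. Values below are levels on the scale of log2(intensity + 16) after quantile normalisation, on which a difference of 1 is a doubling, and levels of different probe sets are not set against each other.

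Astrocytes take up the glutamate that neurons release through the transporters GLAST (Slc1a3) and GLT-1 (Slc1a2), and glutamine synthetase (Glul) turns it into glutamine, which is returned to neurons. They form a coupled network through gap junctions of connexin 43 (Gja1) and connexin 30 (Gjb6), and their end feet around vessels carry the water channel aquaporin 4 (Aqp4). Gfap is an intermediate filament protein that increases in reactive astrocytes, S100b is a calcium-binding protein, Aldoc is the brain form of the glycolytic enzyme aldolase, and Aldh1l1 is a folate enzyme. In RNA from a whole brain, fewer astrocytes and less RNA per astrocyte cannot be told apart.

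Array medians ran from 458 to 893 intensity units, and 4 arrays stood apart with limma quality weights from 0.124 to 0.394: aSYN/Hsp70 replicates 3 and 4 and Hsp70 replicates 3 and 6. By Xist and Y-linked probe sets, the wt and aSYN groups held 4 females each, the Hsp70 group 3 and the aSYN/Hsp70 group 2. Control transcripts were brighter at the 3′ end than at the 5′ end, a measure of RNA integrity and labelling, by 0.85 ± 0.13 for wt arrays, 0.97 ± 0.08 for aSYN, 0.92 ± 0.18 for Hsp70 and 0.85 ± 0.09 for aSYN/Hsp70 (log2 units, mean ± SD, n = 6). Of 8 cerebellar genes 6 were measured, and their mean level ranged in wt from -0.91 to 2.13 log2 units around the wt mean, with wt replicate 1 at the top.

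None of the 29 astrocyte probe sets passed an adjusted p of 0.05 (limma, Benjamini-Hochberg over 27022 probe sets) in any of 6 comparisons. Of all probe sets, 0.0037% were called in aSYN versus wt and 0.718% in aSYN/Hsp70 versus aSYN, while 0% were called in Hsp70 versus wt, aSYN/Hsp70 versus wt, aSYN/Hsp70 versus Hsp70 and the interaction, which is the aSYN difference with Hsp70 minus that without it. At an unadjusted p under 0.05 stood 3 of 29 astrocyte probe sets in aSYN versus wt (10.3%, against 5.17% of all probe sets), 0 in Hsp70 versus wt (all: 4.83%) and 3 in aSYN/Hsp70 versus wt (10.3%, all: 14.5%). In aSYN/Hsp70 versus aSYN it was 5 of 29 (17.2%, all: 19.6%), in aSYN/Hsp70 versus Hsp70 it was 0 (all: 9.62%) and in the interaction it was 1 (3.45%, all: 8.13%). These shares lie on both sides of those of all probe sets.

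Medians over the list were small. The median difference in aSYN versus wt was -0.04 log2 units, with 17 of 29 probe sets lower, against a median of -0.0002 and 50.1% lower over all probe sets. For Hsp70 versus wt the median was -0.03 with 18 of 29 lower (all: -0.02 and 53.4%), and for aSYN/Hsp70 versus wt it was 0.06 with 14 lower (all: -0.04 and 55.4%). What Hsp70 added to aSYN had a median of 0.07 with 12 of 29 lower (all: -0.03 and 54.3%). What aSYN added to Hsp70 had a median of -0.02 with 15 lower (all: -0.01 and 52.5%), which was 0.0684 without quantile normalisation and above 0 whenever 1 array of the pair of groups was left out (0.00443 to 0.0972). In the interaction 7 of 29 were lower, with a median of 0.06 (all: -0.02 and 52.6%). Comparisons that share a group of arrays are not independent of each other.

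**Figure D1:**
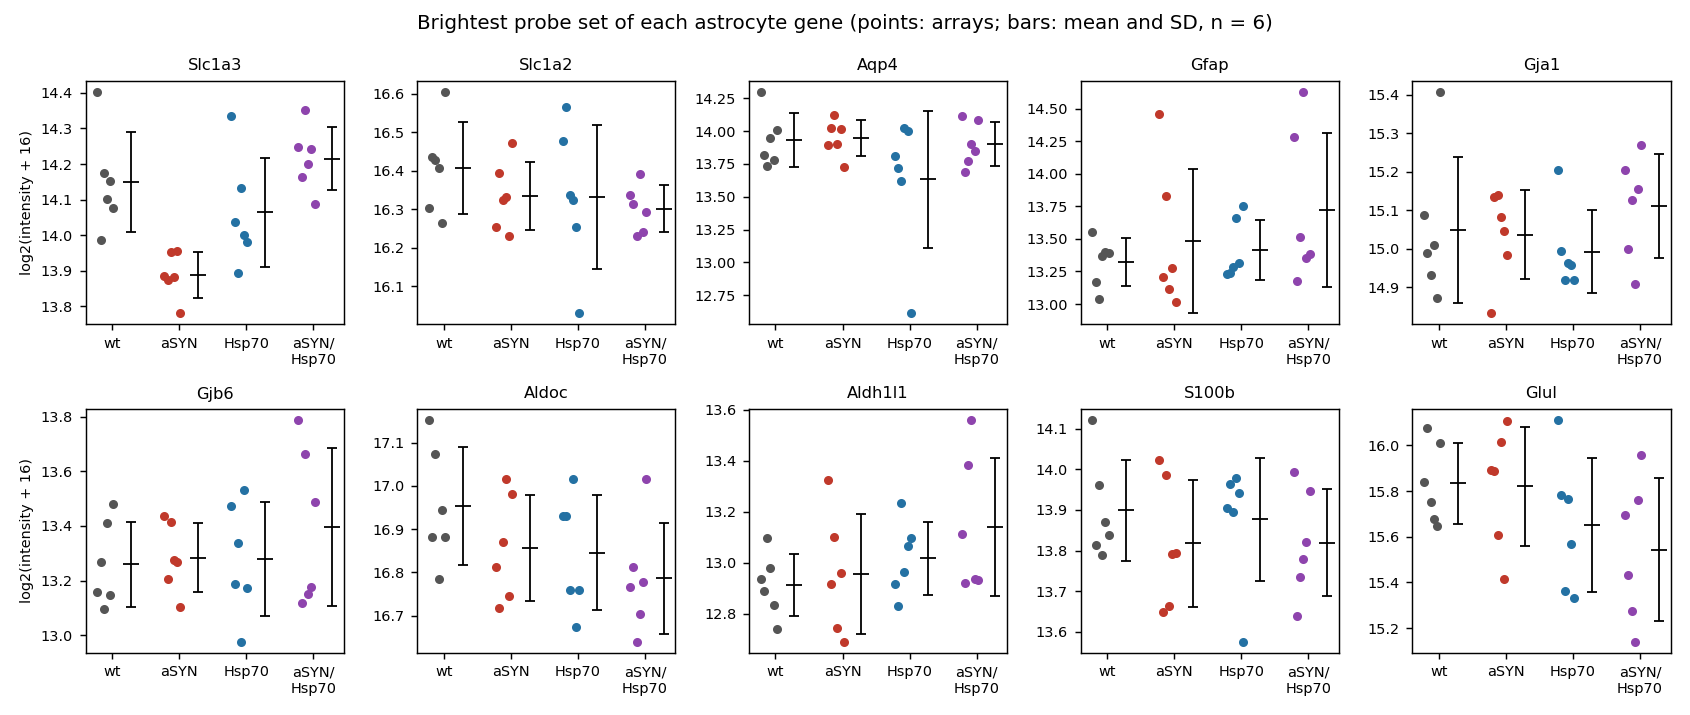
Levels of the brightest probe set of each of the 10 astrocyte genes, in log2(intensity + 16), with 1 point per array in the 4 groups of 6 and the mean and SD beside them; each panel has its own axis. For Slc1a3 all 6 aSYN arrays lie at or below 13.96, under every wt and aSYN/Hsp70 array, while for Gfap single arrays of aSYN and aSYN/Hsp70 reach above 14.

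The brightest probe set of Slc1a3, the glutamate transporter GLAST, had its lowest levels in aSYN brains. This probe set, 1426341_at, ran from 13.98 to 14.40 in wt (median 14.13) and from 13.78 to 13.96 in aSYN (median 13.88). In Hsp70 it ran from 13.89 to 14.34 (median 14.02) and in aSYN/Hsp70 from 14.09 to 14.35 (median 14.22). The 6 aSYN arrays thus lay below all wt and all aSYN/Hsp70 arrays, while Hsp70 arrays overlapped with both. Group means in rising order were 13.89 ± 0.06 (aSYN), 14.06 ± 0.15 (Hsp70), 14.15 ± 0.14 (wt) and 14.22 ± 0.09 (aSYN/Hsp70; SD, n = 6). Hsp70 and wt differed by less than their spread, as did wt and aSYN/Hsp70.

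The aSYN brains differed from wt by -0.26 log2 units in this probe set (SE 0.08, limma adjusted p = 0.452). The aSYN/Hsp70 brains differed from aSYN by 0.33 (SE 0.08, limma adjusted p = 0.0512), just outside the threshold, and the interaction was 0.41 (SE 0.11, adjusted p = 0.249). All 3 use the same aSYN arrays. The 0.33 passed with array weights (0.32, adjusted p = 0.0397), with a trended and robust variance (adjusted p = 0.0236) and without aSYN/Hsp70 replicate 6 (0.35, adjusted p = 0.0284), and with the sex covariate it was 0.35 (adjusted p = 0.0604). It passed in these 3 of 22 alternative fits, 1 of the 12 with an array left out among them, and in the rest it did not, with adjusted p up to 0.136. Slc1a3 is strongly expressed in the Bergmann glia of the cerebellum, and wt replicate 1, highest in the cerebellar list, was also the highest wt array here. Without it the difference between aSYN and wt was -0.21 (limma adjusted p = 0.8). With any 1 array left out that difference ran from -0.29 to -0.21 (limma adjusted p from 0.519 to 0.8). In aSYN versus wt all 12 cerebellar probe sets were lower (median -0.27), as were 9 of 9 of meninges and fibroblasts (-0.07). Of oligodendrocytes and myelin 20 of 25 were lower (-0.11), where 50.1% of all probe sets were lower. At an unadjusted limma p under 0.05 stood 8 of these 25 (32%, all: 5.17%). Lower were also 13 of 22 of neurons (-0.03), 4 of 7 of oligodendrocyte precursors (-0.05) and 6 of 10 of choroid plexus (-0.05). Endothelium had 7 of 14 lower (0.01) and microglia 6 of 15 (0.13). Between Hsp70 and wt, where 1426341_at differed by -0.08, 12 of 12 cerebellar probe sets were lower too (-0.28). So were 20 of 25 of oligodendrocytes and myelin (-0.08), and 3 of 9 of meninges and fibroblasts (0.05). In aSYN/Hsp70 versus wt, where 1426341_at was higher by 0.07, 12 of 12 cerebellar probe sets were lower as well (-0.46). Lower there were also 22 of 25 of oligodendrocytes and myelin (-0.21) and 5 of 9 of meninges and fibroblasts (-0.08). What part these other cells, cerebellar content or the imbalance of the control transcripts had in these differences was not tested.

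**Figure D2:**
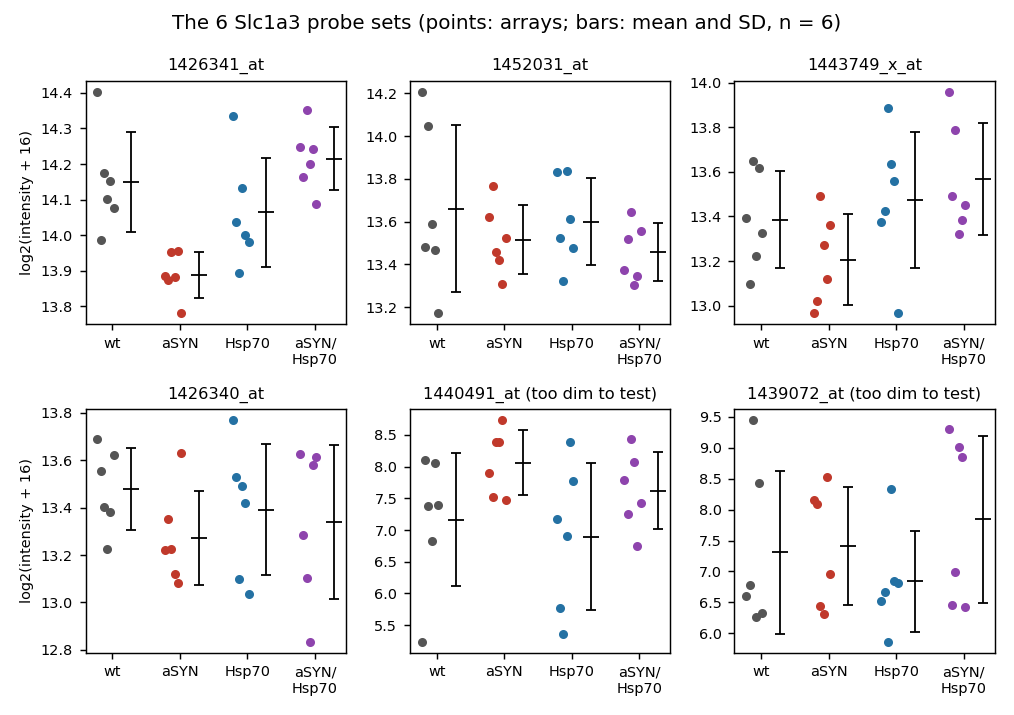
Levels of the 6 Slc1a3 probe sets in log2(intensity + 16), 1 point per array, with mean and SD of each group of 6. The separation of aSYN from wt seen in 1426341_at does not appear in 1452031_at, 1443749_x_at or 1426340_at, whose groups overlap, and the dim 1440491_at and 1439072_at scatter over more than 2 log2 units within wt.

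The 3 other tested probe sets of Slc1a3 were also lower in aSYN than in wt, by less and with groups that overlapped. In aSYN versus wt all 4 tested probe sets were lower, by 0.14 in 1452031_at, 0.18 in 1443749_x_at and 0.21 in 1426340_at beside the 0.26 above, and these 3 others had unadjusted limma p from 0.166 to 0.318. 1452031_at ranged from 13.17 to 14.21 in wt (median 13.53), a spread that took in all 6 aSYN arrays (13.31 to 13.77, median 13.49). For 1426340_at the wt arrays lay between 13.23 and 13.69 (median 13.48) and the aSYN arrays between 13.08 and 13.63 (median 13.22).

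In aSYN/Hsp70 versus aSYN they pointed different ways. 1443749_x_at, whose suffix marks probes that may also bind other transcripts, differed by 0.36 (SE 0.14, adjusted p = 0.181), from 12.97 to 13.49 in aSYN and from 13.32 to 13.96 in aSYN/Hsp70. 1426340_at differed by 0.07 and 1452031_at by -0.06 (limma adjusted p = 0.813 and 0.838). The dim 1440491_at averaged 7.17 ± 1.06 in wt and 8.06 ± 0.52 in aSYN, against 6.90 ± 1.16 in Hsp70 and 7.62 ± 0.61 in the aSYN/Hsp70 group. The dim 1439072_at averaged 7.31 ± 1.31, 7.42 ± 0.96, 6.84 ± 0.81 and 7.84 ± 1.35 in the same order.

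Whether the other Slc1a3 probe sets differed from 1426341_at in their group differences was tested on the log2 ratio of both within each array, with an exact permutation test, two-sided, that went through all 924 ways to divide 12 arrays evenly. With 5 probe sets and 5 comparisons there were 25 tests, of which 4 had p at or under 0.05 and 0 passed after Benjamini-Hochberg adjustment over all 25. The 25 include tests of the Slc1a3 probe sets that were too dim for the fit. Counting these raises the adjusted p of the brighter probe sets, and an adjustment without them was not made. The 0 is therefore not read as a lack of difference between the brighter probe sets. The smallest p the design allows is 0.00216. The ratio of 1452031_at to 1426341_at was -0.37 ± 0.20 in aSYN and -0.76 ± 0.15 in aSYN/Hsp70 (SD, n = 6), a difference of -0.39 (exact permutation p = 0.00649, adjusted p = 0.0812). Between aSYN/Hsp70 and Hsp70 that ratio differed by -0.30 (exact permutation p = 0.00433, adjusted p = 0.0812). The other 2 were ratios of 1440491_at, which was too dim for the fit and not shown to be above background, so no difference is read from it. With an offset 16 times larger, which damps dim probe sets, 3 of the 25 passed, each at an exact permutation adjusted p = 0.0361. They were both ratios of 1452031_at and 1 of the dim 1440491_at. The dim ratio had the smallest exact permutation p of these (0.00216, against 0.00433 for both of 1452031_at). At this offset the adjusted p of 1452031_at over the 25 depends on the rank of a ratio from which no difference is read. The dim tests also raise it by their number, and its value over the brighter probe sets alone was not computed.

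Slc1a2 encodes GLT-1, the transporter that carries most glutamate uptake in the forebrain. Its brightest probe set, 1438194_at, ran from 16.26 to 16.61 in wt (median 16.42), 16.23 to 16.47 in aSYN (16.33), 16.03 to 16.57 in Hsp70 (16.33) and 16.23 to 16.39 in aSYN/Hsp70 (16.30). The 4 groups overlapped, and the 5 pairwise differences lay between -0.11 and -0.03. The other 4 probe sets spread far more. In aSYN/Hsp70 versus aSYN 1439940_at differed by 0.68 and 1451627_a_at by 0.56, while 1459014_at differed by -0.72 and 1433094_at also by -0.72, so that probe sets of 1 gene pointed in opposite directions.

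Of these, 1451627_a_at ran from 11.03 to 11.38 in aSYN and from 11.39 to 12.53 in aSYN/Hsp70, 2 groups that did not overlap (SE 0.18, limma adjusted p = 0.108). Its highest array was aSYN/Hsp70 replicate 4, which had the lowest quality weight. 1459014_at ran from 9.76 to 10.71 in aSYN and from 9.17 to 9.96 in aSYN/Hsp70 (SE 0.19, adjusted p = 0.0719), with wt between 9.39 and 10.21. It differed from wt by -0.41 in aSYN/Hsp70 (adjusted p = 0.335). The differences of 1439940_at (SE 0.45, limma adjusted p = 0.394) and of 1433094_at (SE 0.61, adjusted p = 0.517) did not pass. In both, the aSYN and aSYN/Hsp70 arrays overlapped.

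Glul, glutamine synthetase, had 2 probe sets. The brighter, 1426236_a_at, ran from 15.65 to 16.08 in wt (median 15.80), 15.41 to 16.11 in aSYN (15.89), 15.33 to 16.11 in Hsp70 (15.67) and 15.14 to 15.96 in aSYN/Hsp70 (15.56). The groups overlapped, and the difference between aSYN/Hsp70 and wt was -0.29 (limma adjusted p = 0.37). The other, 1426235_a_at, differed in the same comparison by 0.08, and its 5 pairwise differences lay between -0.04 and 0.12.

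Gja1 encodes connexin 43, the main gap junction protein of astrocytes, and 1 of its 6 probe sets set aSYN brains apart. 1415801_at ran from 12.99 to 13.32 in wt (median 13.09) and from 12.59 to 12.83 in aSYN (median 12.71), with no overlap. In Hsp70 brains it ran from 12.89 to 13.73 (median 13.19), and in those with both from 12.81 to 13.45 (median 13.28). Only aSYN/Hsp70 replicate 4, at 12.81, reached into the range of the aSYN arrays. The mean was 12.72 ± 0.09 for aSYN and 13.11 ± 0.11 for wt, then 13.23 ± 0.23 for aSYN/Hsp70 and 13.28 ± 0.30 for Hsp70 (SD, n = 6), and the last 3 differed by less than the spread in aSYN/Hsp70 and Hsp70.

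The difference between aSYN and wt was -0.39 log2 units (SE 0.12, limma adjusted p = 0.475), and that between aSYN/Hsp70 and aSYN was 0.51 (SE 0.12, adjusted p = 0.0502). Both rest on the same aSYN arrays. The -0.39 passed with array weights (adjusted p = 0.0177) and with those 4 low-weight arrays left out (adjusted p = 0.0461), fits that called 217 and 35 of all probe sets where the first called 1. These were 2 of 22 alternative fits, and in the rest it did not pass, with adjusted p up to 0.828, and from 0.506 to 0.818 with 1 array left out. None of the 4 arrays belongs to aSYN or wt, so leaving them out kept the -0.39 and changed the SE, from 0.12 to 0.07. With only the aSYN and wt arrays fitted the SE was also 0.07 (limma adjusted p = 0.117). The 0.51 passed with array weights (0.58, adjusted p = 0.00434) and without the 4 low-weight arrays (0.56, adjusted p = 0.0107). It also passed with a trended and robust variance (adjusted p = 0.0248), with the larger offset (0.49, adjusted p = 0.046), and without aSYN/Hsp70 replicate 4 (0.59, adjusted p = 0.025) or replicate 6 (0.52, adjusted p = 0.035). With the sex covariate it was 0.51 (adjusted p = 0.084). It passed in 6 of 22 alternative fits, and in the rest the adjusted p reached 0.126. The other-cell lists given beside Slc1a3 for aSYN versus wt apply here too, and their part was not tested.

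The other 5 Gja1 probe sets did not share this pattern. All of them but 1415800_at carry the suffix _x_at, which marks probes that may also bind other transcripts. In aSYN versus wt they differed by -0.01 (1437992_x_at), 0.09 (1415800_at), 0.17 (1438945_x_at), 0.14 (1438650_x_at) and 0.29 (1438973_x_at), with unadjusted p from 0.231 to 0.884. The brightest, 1437992_x_at, ran from 14.87 to 15.41 in wt, 14.83 to 15.14 in aSYN, 14.92 to 15.21 in Hsp70 and 14.91 to 15.27 in aSYN/Hsp70. Its 4 groups overlapped throughout. In aSYN/Hsp70 versus aSYN 1415800_at differed by -0.36 (adjusted p = 0.262), opposite to 1415801_at, with aSYN/Hsp70 replicate 4 lowest at 13.04. Without that array the difference of 1415800_at was -0.20, and without the 4 low-weight arrays it was -0.05. The place of each probe set along the transcript was not used here.

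**Figure D3:**
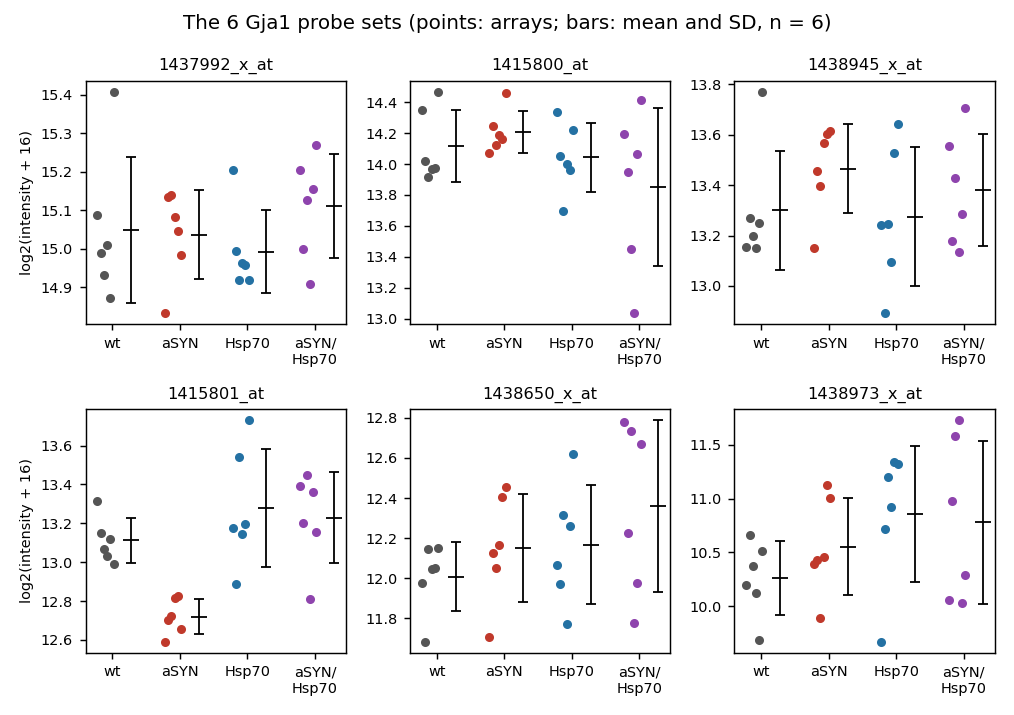
Levels of the 6 Gja1 probe sets in log2(intensity + 16), 1 point per array, with mean and SD of each group of 6. In 1415801_at the aSYN arrays (12.59 to 12.83) lie below all wt arrays, and in the other 5 probe sets the aSYN and wt arrays overlap.

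Gjb6, connexin 30, had a single probe set that ran from 13.09 to 13.48 in wt (median 13.21), 13.10 to 13.44 in aSYN (13.27), 12.98 to 13.53 in Hsp70 (13.26) and 13.12 to 13.79 in aSYN/Hsp70 (13.33). The groups overlapped, and the largest of its pairwise differences was 0.14, between aSYN/Hsp70 and wt (limma adjusted p = 0.575).

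Of astrocyte and all other probe sets, those whose 2 groups did not overlap were counted as well. In aSYN versus wt these were 2 of the 29 (Slc1a3 1426341_at and Gja1 1415801_at), where 1.17% of all probe sets did so, and in aSYN/Hsp70 versus aSYN also 2 (Slc1a3 1426341_at and Slc1a2 1451627_a_at; all: 2.05%). There were 0 in Hsp70 versus wt (all: 0.27%), 0 in aSYN/Hsp70 versus wt (all: 0.888%) and 0 in aSYN/Hsp70 versus Hsp70 (all: 0.311%).

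**Figure D4:**
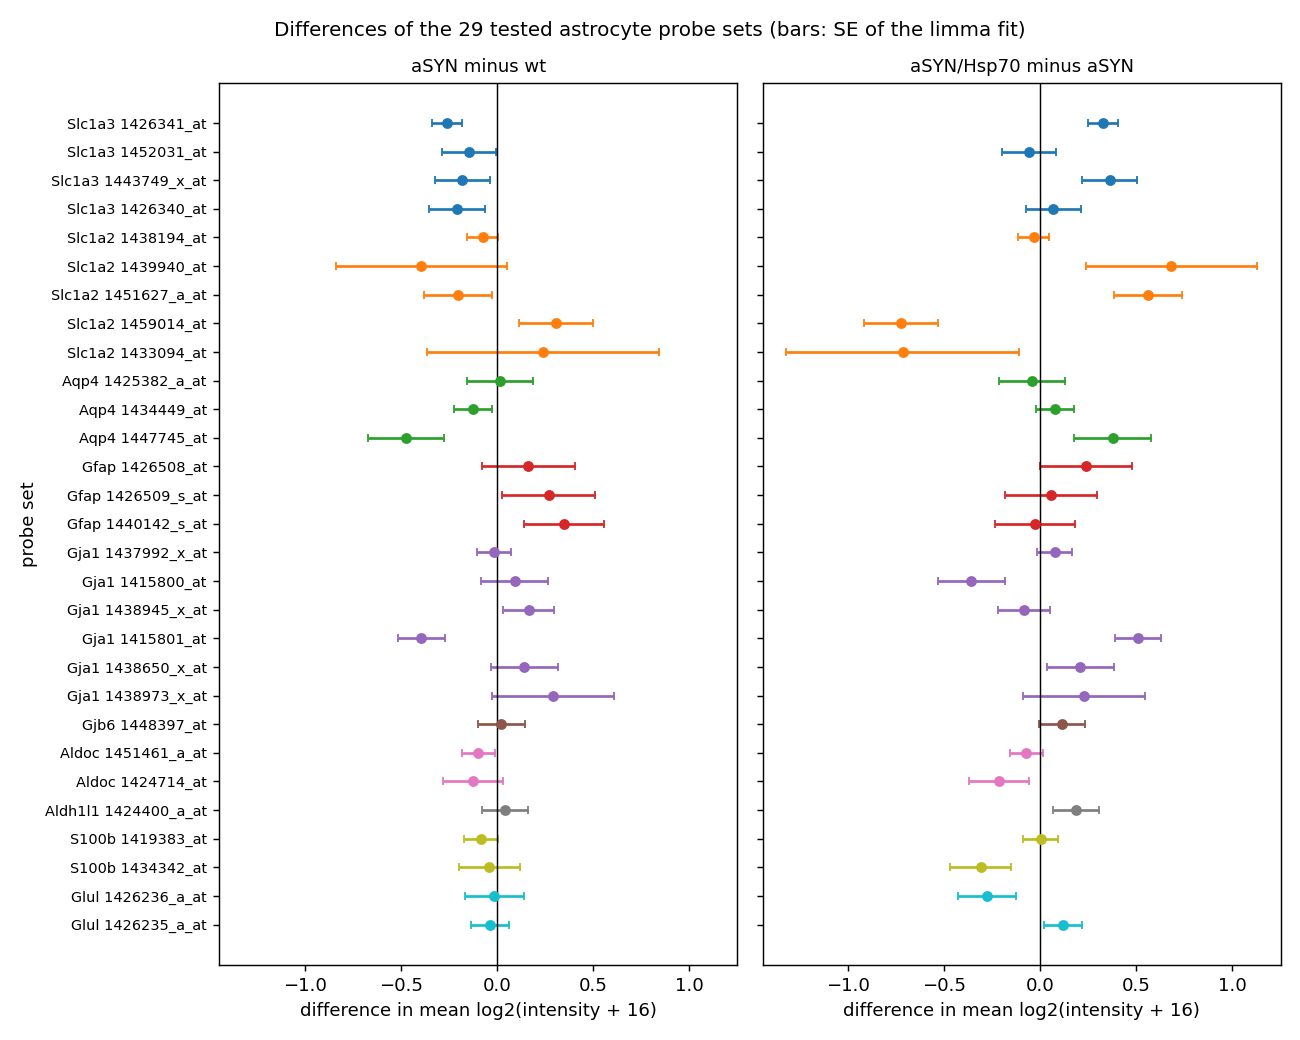
Differences in mean log2(intensity + 16) for the 29 tested probe sets, aSYN minus wt on the left and aSYN/Hsp70 minus aSYN on the right, with the SE of the limma fit as bars and 1 colour per gene. The 2 panels share the aSYN arrays, so that a low aSYN mean moves a point left in one and right in the other; no probe set passed an adjusted p of 0.05 in either.

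Aqp4, the water channel, had groups that overlapped in its brightest probe set. 1425382_a_at ran from 13.73 to 14.30 in wt (median 13.88), 13.72 to 14.12 in aSYN (13.96), 12.61 to 14.03 in Hsp70 (13.76) and 13.69 to 14.11 in aSYN/Hsp70 (13.88). The low end of the Hsp70 group was replicate 6 alone, 1 of the 4 arrays that stood apart. The Hsp70 mean differed from wt by -0.30 (limma adjusted p = 0.881), and by -0.09 without that array. Between aSYN/Hsp70 and Hsp70 the difference was 0.27 (limma adjusted p = 0.629). 1434449_at differed between groups by -0.12 to 0.08. The dimmer 1447745_at ran from 11.42 to 11.85 in wt and from 10.82 to 11.59 in aSYN, a difference of -0.47 (SE 0.20, limma adjusted p = 0.837) with 6 of 6 aSYN arrays below the wt mean.

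Gfap, the filament protein that rises in reactive astrocytes, varied more between single arrays than between groups. 1426508_at ran from 13.04 to 13.55 in wt (median 13.38), 13.02 to 14.46 in aSYN (13.24), 13.23 to 13.76 in Hsp70 (13.30) and 13.18 to 14.63 in aSYN/Hsp70 (13.45). The arrays above 14 were aSYN replicate 1 (14.46) and aSYN/Hsp70 replicates 1 (14.28) and 4 (14.63). The same 3 arrays were highest in both other Gfap probe sets, at 13.70, 13.33 and 13.65 in 1426509_s_at and 12.49, 11.78 and 12.36 in 1440142_s_at. All 3 probe sets had higher means than wt in the other groups, by 0.16, 0.27 and 0.35 in aSYN, by 0.09, 0.05 and 0.20 with Hsp70 alone, and by 0.40, 0.33 and 0.32 with both, with limma adjusted p of 0.418 or more. Single arrays carried much of this: without aSYN replicate 1 the aSYN differences were -0.03, 0.07 and 0.17, and without aSYN/Hsp70 replicate 4 those with both were 0.22, 0.15 and 0.16. Without Hsp70 replicate 6 the Hsp70 difference of 1426509_s_at was -0.02.

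S100b had 2 probe sets. The brighter, 1419383_at, ran from 13.79 to 14.12 in wt (median 13.85), 13.65 to 14.02 in aSYN (13.79), 13.58 to 13.98 in Hsp70 (13.92) and 13.64 to 13.99 in aSYN/Hsp70 (13.80). Its 5 pairwise differences lay between -0.08 and 0.00. The other, 1434342_at, ran from 13.05 to 13.75 in wt and from 12.70 to 13.40 in aSYN/Hsp70, a difference of -0.35 (SE 0.16, limma adjusted p = 0.333). In Hsp70 it was -0.33 from wt (adjusted p = 0.881).

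Aldoc, the brain aldolase, was highest in wt in both probe sets. 1451461_a_at ran from 16.78 to 17.15 in wt (median 16.91), 16.72 to 17.02 in aSYN (16.84), 16.67 to 17.02 in Hsp70 (16.84) and 16.64 to 17.02 in aSYN/Hsp70 (16.77), and the groups overlapped. Its difference between aSYN/Hsp70 and wt was -0.17 (limma adjusted p = 0.357). For 1424714_at that difference was -0.34 (SE 0.16, adjusted p = 0.335), with 6 of 6 aSYN/Hsp70 arrays below the wt mean of 12.29. Aldoc is also made by Purkinje cells of the cerebellum, and wt replicate 1, highest in the cerebellar list, had the highest level of 1451461_a_at but the lowest wt level of 1424714_at.

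Aldh1l1, the folate enzyme, ran in 1424400_a_at from 12.74 to 13.10 in wt (median 12.91), 12.69 to 13.33 in aSYN (12.94), 12.83 to 13.23 in Hsp70 (13.01) and 12.92 to 13.56 in aSYN/Hsp70 (13.02). The groups overlapped, and aSYN/Hsp70 differed from wt by 0.23 (limma adjusted p = 0.369), with aSYN/Hsp70 replicates 4 and 3 highest. The dim 1424401_at, which was not tested, averaged 7.93 ± 1.01 for wt, 8.34 ± 0.35 for aSYN, 7.74 ± 1.26 for Hsp70 and 6.74 ± 1.03 for both.

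Probe sets of 1 gene could differ in sign, and how often this happens by chance or among all genes was not tested. Of the 8 genes with several tested probe sets, 7 had differences of both signs in aSYN/Hsp70 versus aSYN (all but Aldoc), 3 in aSYN versus wt, 4 in Hsp70 versus wt, 4 in aSYN/Hsp70 versus wt and 5 in aSYN/Hsp70 versus Hsp70. Some signs in aSYN/Hsp70 versus aSYN rest on 1 value smaller than its SE. These were S100b (0.002, SE 0.09), Gfap (-0.03, SE 0.21), Aqp4 (-0.04, SE 0.17) and Slc1a3 (-0.06, SE 0.14). Slc1a2, Gja1 and Glul had differences larger than their SE in both directions. After each group's mean was taken away, Pearson's r over the 24 arrays was computed for each pair of the 29 probe sets, as a description, since all values of an array share its RNA, hybridisation and scaling. The median r was 0.22 for the 40 pairs within a gene, from -0.54 to 0.95, and 0.01 for the 366 pairs between genes, from -0.78 to 0.86. The 3 Gfap probe sets had r from 0.75 to 0.95, the 6 pairs of Slc1a3 from 0.08 to 0.59, and the 15 pairs of Gja1 from -0.54 to 0.73.

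Some probe sets had their highest r with those of another gene. Slc1a3 1426340_at had r = 0.86 with Glul 1426236_a_at and 0.79 with Gja1 1415800_at, and at most 0.28 with the other Slc1a3 probe sets. Gja1 1415800_at had r = 0.69 with Glul 1426236_a_at and 0.68 with S100b 1434342_at, beside 0.65 with Gja1 1437992_x_at and 0.22 with Gja1 1415801_at. In the opposite direction, Gja1 1415800_at had r = -0.78 with Slc1a2 1451627_a_at and -0.74 with Aldh1l1 1424400_a_at. aSYN/Hsp70 replicate 4, of the lowest weight, was the lowest of its group in Slc1a3 1426340_at, Glul 1426236_a_at, Gja1 1415800_at and Aldoc 1424714_at and the highest in Slc1a2 1451627_a_at and Aldh1l1 1424400_a_at.

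**Figure D5:**
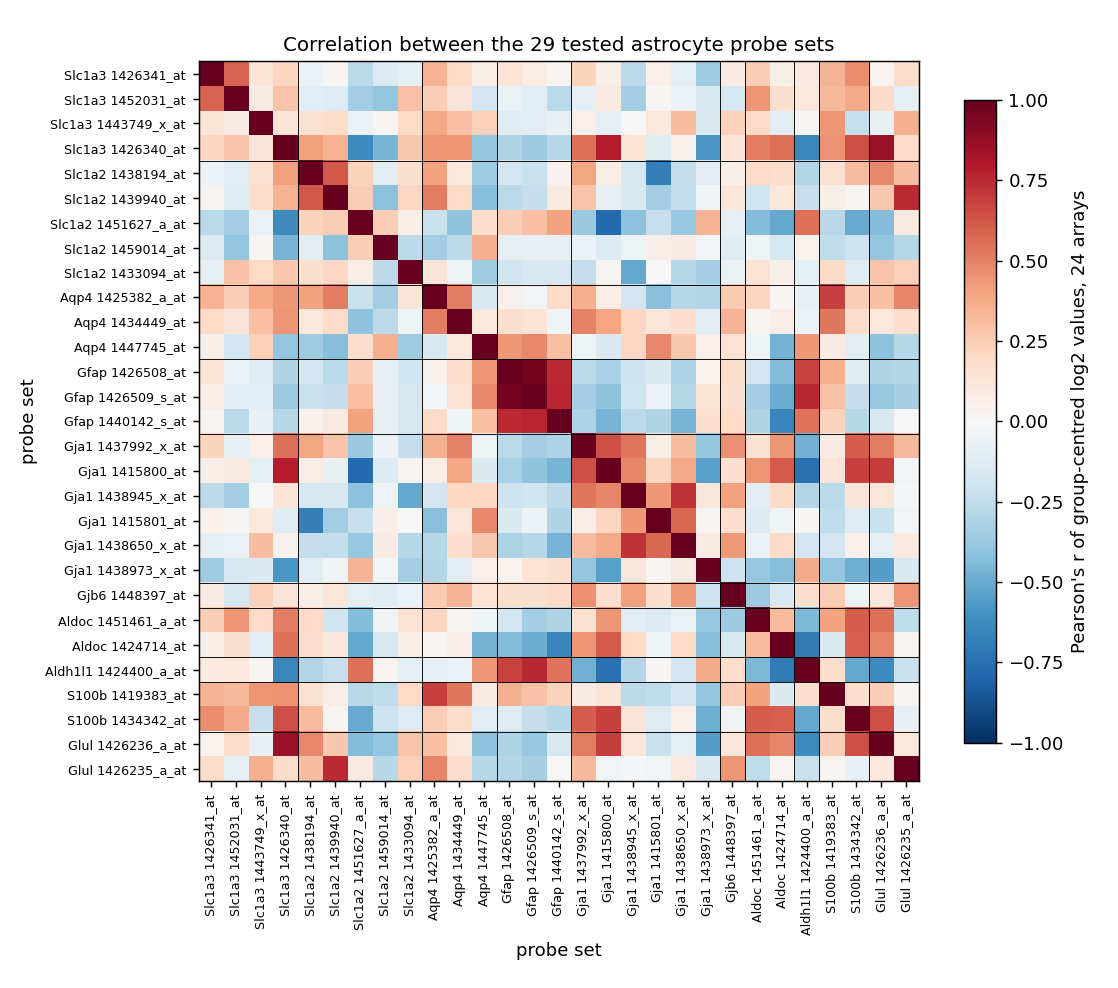
Pearson's r over 24 arrays between the 29 tested astrocyte probe sets, each centred on its group means, from -1 (blue) to 1 (red), with lines between genes. The 3 Gfap probe sets form a red block (0.75 to 0.95), while the blocks of Slc1a2 and Gja1 hold values of both signs.

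Outside the list, the 5 genes whose group-centred levels were most like those of Slc1a3 1426341_at over the 24 arrays were Ehd1 (r = 0.79), Uck1 (0.71), Chd7 (0.69), Fzd1 (0.67) and Zwilch (0.67). None of the other 9 astrocyte genes was among them. The 5 were picked as the highest over all tested probe sets with a single symbol. How high such r would run by chance, or through the RNA, hybridisation and scaling that values of an array share, was not tested.

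A wider list of 50 astrocyte genes, of which 48 were measured with 87 probe sets, had 0 calls by limma in the 6 comparisons. At an unadjusted p under 0.05 it had 5 of 87 in aSYN versus wt (5.75%, all probe sets: 5.17%), 1 in Hsp70 versus wt (1.15%, all: 4.83%) and 6 in aSYN/Hsp70 versus wt (6.9%, all: 14.5%). In aSYN/Hsp70 versus aSYN it had 13, of which 8 were higher (14.9%, all: 19.6%), in aSYN/Hsp70 versus Hsp70 it had 3 (3.45%, all: 9.62%) and in the interaction 6 (6.9%, all: 8.13%). Its medians were -0.03, -0.03, -0.04, -0.02, 0.01 and 0.01 in that order. Fgfr3, a fibroblast growth factor receptor of astrocytes, had the smallest p in aSYN versus wt (-0.38, SE 0.13, adjusted p = 0.665), in aSYN/Hsp70 versus aSYN (0.41, SE 0.13, adjusted p = 0.116) and in the interaction (0.63, SE 0.19, adjusted p = 0.331), again over shared aSYN arrays. Dio2, the deiodinase that activates thyroid hormone, stood at -0.41, 0.56 and 0.65 in the same comparisons (adjusted p = 0.919, 0.121 and 0.541).

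Other genes of the wider list with the 3 smallest p in a comparison were the bicarbonate transporter Slc4a4 (-0.17, aSYN versus wt), Sparcl1 (-0.19), the glutamine transporter Slc38a3 (-1.003) and Mlc1 (-0.19) in Hsp70 versus wt, and Megf10 (-1.26), clusterin (Clu, 0.25) and Id4 (-0.46) in aSYN/Hsp70 versus wt. The urea transporter Slc14a1 (-0.34) was among them in aSYN/Hsp70 versus aSYN, Slc38a3 (1.35), the phagocytic receptor Mertk (-0.34) and tissue factor (F3, -0.56) in aSYN/Hsp70 versus Hsp70, and Slc38a3 (2.12) in the interaction. Their limma adjusted p-values lay between 0.12 and 0.919.

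Lists of other cell types are given for the comparison with the most calls, aSYN/Hsp70 versus aSYN, where 0.718% of all probe sets were called and 54.3% were lower. The 22 neuron probe sets had a median of 0.02 with 10 lower, of which 3 were called, for the vesicle calcium sensor Syt1 (0.57 and 0.47, limma adjusted p = 0.0107 and 0.0364) and the chloride transporter Slc12a5 (0.50, adjusted p = 0.0219). The 14 endothelial probe sets had a median of -0.02 with 8 lower and 1 called, the tight junction gene Cldn5 (0.71, adjusted p = 0.046). No other list had a call: the medians were -0.07 for 25 oligodendrocyte and myelin probe sets (18 lower), -0.15 for 7 of oligodendrocyte precursors (4 lower), -0.04 for 15 of microglia (11 lower), 0.24 for 9 of meninges and fibroblasts (4 lower), -0.15 for 10 of choroid plexus (9 lower) and -0.13 for 12 of cerebellum (7 lower). Against wt, aSYN/Hsp70 had 22 of 25 oligodendrocyte and myelin probe sets lower (median -0.21), and 12 of 12 cerebellar ones (median -0.46), where 55.4% of all probe sets were lower. Of the 25, 13 stood at an unadjusted limma p under 0.05 (52%, all: 14.5%) and 0 were called. In the mean over the brightest probe sets of that list, aSYN/Hsp70 replicate 4 stood at -0.72 from the wt mean. The other arrays of its group ran from -0.23 to 0.05. The part of these lists in the astrocyte values was not tested.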

How the data were processed

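The authors deposited 1 linear intensity per probe set and array; which program summarised the intensities is not given in the sources at hand. Each array's trimmed mean was 2500. Intensities were transformed as log2(intensity + 16), which understates differences of dim probe sets, and quantile normalised. Left out were 64 control probe sets and the 18015 with the lowest means (40%), which left 27022. All 24 arrays were fitted together, each group with its own mean, by lmFit and eBayes of limma 3.58.1 (R 4.3.3), with Benjamini-Hochberg adjustment over all 27022, called at 0.05; the number of arrays limits the precision. The fit was tested on simulated data. Probe sets were named from the platform's annotation, which can be old: 34958 carried 1 symbol, 932 several and 9211 none here.

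Members, lists and tests were chosen with earlier results of these data known. Named were all member probe sets, genes of the wider astrocyte list with the 3 smallest p per comparison, called genes of other lists, and the 5 genes most like Slc1a3. Alternatives were no quantile normalisation, an offset of 1 or one 16 times larger, no dim filter, fits restricted to the arrays compared, a block for the replicate number, array weights, omission of 4 arrays or of any 1 array, trended and robust variance, and sex as a covariate. Figures used matplotlib 3.10.9.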

Additional observations from a re-analysis of the deposited data

Results flagged for a closer look

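In 9 of the 128 combinations of a member probe set and a group, 1 array lay far from the other 5 by Dixon's criterion, where chance gives about 1 in 20 (6.4). Hsp70 replicate 6 was low in Slc1a2 1439940_at (11.86, next 14.11), Aqp4 1425382_a_at (12.61, next 13.62) and S100b 1419383_at (13.58, next 13.90). Hsp70 replicate 1 was high in Gja1 1437992_x_at (15.21, next 14.99). In wt, replicate 6 was high in Gja1 1438945_x_at (13.77, next 13.27) and low in the dim Aldh1l1 1424401_at (6.03, next 7.95), and replicate 3 was low in Glul 1426235_a_at (14.32, next 14.65). In aSYN, replicate 1 was high in Gfap 1440142_s_at (12.49, next 11.55) and replicate 5 low in Slc1a2 1433094_at (6.09, next 8.84).

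Slc1a3 1426341_at lay under the mean of wt in all 6 aSYN arrays and over that of Hsp70 in all 6 aSYN/Hsp70 arrays. The difference between these, the interaction of 0.41 log2 units, did not pass (limma adjusted p = 0.249).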

How the results depend on the processing

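Under the alternatives, astrocyte probe sets were called in 2 comparisons. In aSYN versus wt, 1 (Gja1 1415801_at) was called with array weights and 1 without the 4 arrays that stood apart, of 217 and 35 calls over all probe sets against 1. In aSYN/Hsp70 versus aSYN, 1 was called with the larger offset (of 215 over all probe sets, against 194), 2 (with Slc1a3 1426341_at) with array weights (of 324), 1 without the 4 arrays (of 100), 2 with a trended and robust variance (of 369), and 0 to 2 with 1 array left out (1 of 101 without aSYN/Hsp70 replicate 4, 2 of 814 without replicate 6). The median difference in aSYN/Hsp70 versus Hsp70, -0.02, was 0.0684 without quantile normalisation and between 0.00443 and 0.0972 with 1 array left out, positive in each case. In the other 5 comparisons it moved by less than 0.0768, the SD between arrays. Of the 25 ratio tests within Slc1a3, 3 passed with the larger offset, and 1 of them, with the smallest p, was of a dim probe set. Same-numbered arrays gave r from -0.15 to 0.19 (median 0.02) in their deviations from group means, and other-numbered arrays from -0.23 to 0.23 (median -0.01). Best correlated with their own number were 8 of 24 arrays, and how many would be by chance was not computed. The labels name no pairs, so the numbers were not taken as pairs. With the replicate block, 0 astrocyte probe sets were called in the 6 comparisons, and Slc1a3 1426341_at in aSYN/Hsp70 versus aSYN stood at 0.327 (limma adjusted p = 0.0623). Of 4147 values of single probe sets under alternatives, 5 moved by more than the SD between arrays without a call and 11 became calls in the same direction. The causes were not tested. Signal over background is unknown without detection calls.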
